A study of Mus musculus with 3 samples.

Results

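Il11, Olfr655, Upb1, Tnfaip8l1, Bloc1s6, Eif3j2, Eif3j1 and Nuggc are 8 of the 32285 genes counted in dissociated mouse testes. They were picked because earlier work on these same libraries listed them as higher in germ cells of a Tex10 knockout library and because none of them lies on chromosome 4. The knockout-to-wildtype difference is therefore what chose them, and it is described here without a test. Wildtype germ cell levels enter that difference, so the stage profiles are not free of the choice. Levels in somatic cells were not used to choose the genes. The spread from cell to cell was not used as such, though a few cells can make up a difference.

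Adult C57BL/6N mice gave 3 libraries of 10x Genomics 3′ RNA counts, in which a unique molecular identifier (UMI) marks each captured molecule. Wildtype replicate 1 and wildtype replicate 2 each came from 1 wildtype mouse. The knockout library pooled testis cells of 2 mice with the genotype conditional Tex10 knockout, so the pair cannot be separated and no knockout value has a replicate. The labels do not say which Cre line was used or what part of Tex10 it removes, so the cells that lost the gene are unknown here.

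The libraries held 93418341, 96001773 and 147783171 UMIs in 9967, 10153 and 12918 barcodes, in the order wildtype replicate 1, wildtype replicate 2 and knockout that is kept below. Pairs of libraries shared 27 to 30 barcodes, at most 0.301% of a library. After cell filtering 7483, 7670 and 11052 cells were kept. Clusters of low UMI totals held 55.2%, 40.5% and 64.6% of them and were kept apart from the named cell classes. Spermatogonia, early and late spermatocytes, and round and elongating spermatids were named from fixed markers, with the 8 genes left out of the clustering, and each name means spermatogonia-like, spermatocyte-like or spermatid-like cells by those markers. The knockout library was the deepest in each of these classes. The classes held from 225 spermatogonia (wildtype replicate 1) to 1853 elongating spermatids (wildtype replicate 2) per library. Levels are in CPM, a gene's UMIs scaled to the UMI total of its class in a library, with exact 95% Poisson intervals that cover counting error only. Tex10 itself stood at 45.1, 41.04 and 35.2 CPM over all kept cells, the knockout library being lowest at 81.6% of the wildtype mean. In spermatogonia it stood at 143, 124 and 131 CPM, with overlapping intervals. It was below both wildtype intervals in late spermatocytes (56.1, 52.7 and 46.4 CPM) and round spermatids (19.2, 21.1 and 13.7 CPM). Counting at the 3′ end need not see a deleted exon, so these levels do not measure the loss of Tex10 function.

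Spermatogonia are the dividing germ cells at the base of the seminiferous tubule. Their descendants pass through meiosis as spermatocytes, become round spermatids, and then elongate while the nucleus is compacted and transcription ends. The 8 genes have unrelated known roles. Il11 encodes interleukin 11, a secreted cytokine of the interleukin 6 family. Olfr655 encodes a member of the olfactory receptor family, many of which also have transcripts in testis. Upb1 encodes the enzyme of the last step of uracil and thymine breakdown. Tnfaip8l1 encodes a TNFAIP8-family protein, a group described in cell death and inflammation. Bloc1s6 encodes pallidin, a subunit of the BLOC-1 complex that sorts cargo to lysosome-related organelles. Eif3j1 and Eif3j2 encode copies of the loosely bound J subunit of translation initiation factor eIF3. Nuggc encodes a nuclear GTPase known from germinal centre B cells.

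Among them, 4 genes shared both a wildtype peak in spermatogonia and their only passing knockout difference there: Il11, Olfr655, Upb1 and Tnfaip8l1. The peak is the highest of the 5 germ cell classes. For Tnfaip8l1 it was low, at 2.63 and 3.69 CPM, against 5.29 and 2.14 CPM in wildtype peritubular myoid cells. Upstream sequences of the 4 genes are shown because these genes share that class, which does not mean the same cells. Each is RefSeq sequence of GRCm38.p6, 5′ to 3′ on the gene's strand, and bases within the gene's own annotated exons were left out at the 3′ end. Capitals mark exact matches, on either strand, to any of the following promoter elements. The first was searched as TATAAA and is called the TATA box. The CCAAT box was searched by the letters of its name. The GC box, a site of Sp-family factors, was searched as GGGCGG. The Il11 stretch is chr7:4778142-4778391 (minus strand), upstream of the inner of its 2 RefSeq starts and within the longer GENCODE gene body. The Olfr655 stretch is chr7:104597220-104597429 (minus strand), the Upb1 stretch chr10:75406661-75406910 (plus strand) and the Tnfaip8l1 stretch chr17:56162241-56162476 (plus strand).
Il11: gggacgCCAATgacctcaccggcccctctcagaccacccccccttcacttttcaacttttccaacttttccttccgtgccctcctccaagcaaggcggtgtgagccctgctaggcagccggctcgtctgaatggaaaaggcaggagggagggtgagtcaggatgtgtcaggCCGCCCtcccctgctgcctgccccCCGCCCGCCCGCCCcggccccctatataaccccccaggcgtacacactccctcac
Olfr655: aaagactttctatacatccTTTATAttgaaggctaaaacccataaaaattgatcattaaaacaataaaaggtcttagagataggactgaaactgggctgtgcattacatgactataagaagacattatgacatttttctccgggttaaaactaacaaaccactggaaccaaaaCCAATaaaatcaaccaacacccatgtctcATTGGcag
Upb1: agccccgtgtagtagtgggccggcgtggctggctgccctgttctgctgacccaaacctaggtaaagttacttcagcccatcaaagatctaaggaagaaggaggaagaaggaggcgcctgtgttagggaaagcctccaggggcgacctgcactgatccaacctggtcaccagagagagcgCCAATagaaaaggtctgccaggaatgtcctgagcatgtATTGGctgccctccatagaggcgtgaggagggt
Tnfaip8l1: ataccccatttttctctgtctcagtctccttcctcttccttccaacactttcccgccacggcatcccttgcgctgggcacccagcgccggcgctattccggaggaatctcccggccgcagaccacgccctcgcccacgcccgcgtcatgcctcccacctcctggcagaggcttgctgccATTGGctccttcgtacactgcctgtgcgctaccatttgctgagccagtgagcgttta

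Over the 250 bases upstream of the start, the 4 windows shown held a CCAAT match, as did 33.8% of 32851 RefSeq promoters of the same length. In Olfr655 the matches lay 77 bases (plus) and 48 bases (minus) before the start, and in Upb1 71 bases (plus) and 33 bases (minus). The Tnfaip8l1 match lay 71 bases before the start on the minus strand, and the Il11 match 244 bases before it. An exact TATAAA match stood only in the Olfr655 window among these, 231 bases upstream on the minus strand, and 12.4% of all promoters held one. Near forms were not searched. The Il11 stretch holds the letters TATATAA near its 3′ end, which the search does not match. The Il11 window had 4 GC box matches, at 79, 55, 51 and 47 bases, of which the last 3 overlap. In all, 32.7% of promoters held a GC box. The E-box was searched as CACGTG, found in 6.02% of promoters, and had no match in these 4 windows. The same was true of the cAMP response element TGACGTCA, found in 1.55%. Base composition differed widely, from 35.2% G and C with 2 CpG in Olfr655 to 63.2% with 18 CpG in Tnfaip8l1 and 64.8% with 12 CpG in Il11. Upb1 stood at 56.4% with 7 CpG, against medians of 52.4% and 6 CpG over all promoters. The window of the outer Il11 start held no CCAAT or TATA match, 1 GC box 70 bases before the start and 58.8% G and C with 1 CpG. It was not shown because it reaches into the neighbouring gene Tmem190. These matches describe letters and show no binding.

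A gene passed the size rule in a class when the log2 of (knockout CPM + 1) over (wildtype CPM + 1) reached 1 in size, with the same sign, in both comparisons with a wildtype library, the smaller ratio was at least 2 times the difference between the wildtype libraries, and a library reached 20 CPM. In spermatogonia 20 of 7378 genes tested passed as higher (0.271%), among them 5 of the 7 listed genes tested. In early spermatocytes 6 of 6992 passed (0.0858%) and 1 of 4 listed genes, Eif3j2. In late spermatocytes 22 of 5924 passed (0.371%) and 1 of 2, Nuggc. In round spermatids 27 of 5377 passed (0.502%) and 1 of 4, Bloc1s6. In elongating spermatids 22 of 3028 passed (0.727%) and 1 of 2, again Bloc1s6. Over the 5 germ cell classes 68 of 10475 genes passed in at least 1 class (0.649%), 48 of them outside chromosome 4, and 7 of the 8 listed genes were among these 48. As lower in the knockout library, 0 listed genes passed in any of the 5 classes, where 0.0949%, 0.129%, 0.54%, 0.651% and 0.694% of genes did, from spermatogonia to elongating spermatids. Because the genes were chosen for this difference, nothing is read from those shares. Eif3j1 passed in 0 of the 5 classes and was lower in 3 of them, against its listing. Near the limits of the rule, the smaller ratio of Nuggc in late spermatocytes was 1.11. Just outside, Il11 in early spermatocytes had 0.99, and Eif3j2 in round spermatids reached 19.4 CPM.

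**Figure D1:**
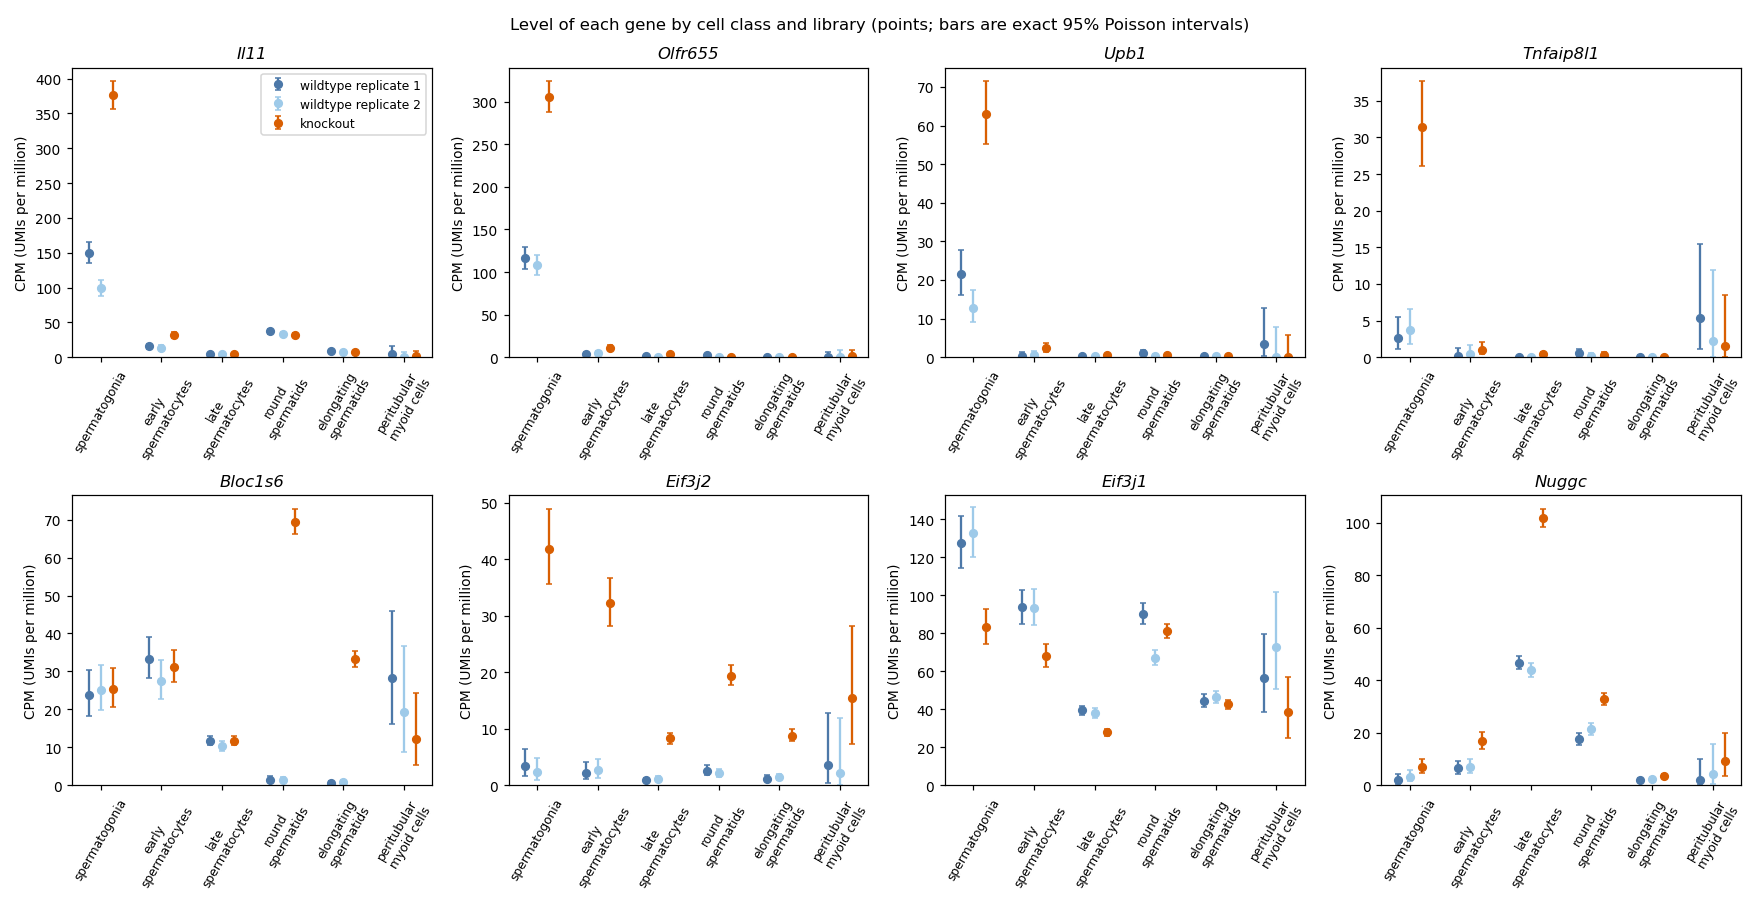
Level of each of the 8 genes (CPM, linear axis from 0) in the germ cell classes and peritubular myoid cells, with 1 point per library and exact 95% Poisson intervals. Il11, Olfr655, Upb1 and Tnfaip8l1 stand apart in knockout spermatogonia (376, 306, 62.9 and 31.5 CPM), Bloc1s6 in knockout spermatids, Nuggc in knockout late spermatocytes, and Eif3j2 is above both wildtype libraries in every germ cell class.

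Il11 (chr7:4772373-4782859, minus strand, protein-coding) had its highest level per UMI total in spermatogonia in all libraries. There it stood at 149.7 CPM (135 to 165; 398 UMIs), 99.4 CPM (88.4 to 111; 296 UMIs) and 376 CPM (357 to 396; 1422 UMIs). The knockout interval lay above both wildtype intervals, which did not overlap each other either. Its knockout level was 3.02 times the wildtype mean of 124.6 ± 35.6 CPM (SD, n = 2), with log2 ratios of 1.32 and 1.91. Wildtype Il11 was next highest in round spermatids (34.95 ± 2.95 CPM), then early spermatocytes (14.3), elongating spermatids (8.02) and late spermatocytes (4.404). The wildtype values of neighbouring classes did not overlap at any step of this order, though counting intervals of early spermatocytes and elongating spermatids did. Early spermatocytes held 15.4, 13.2 and 31.5 CPM, with the knockout interval above both wildtype libraries and a level 2.20 times the wildtype mean, just under the size rule. With the stricter cell filter Il11 passed there (9.61, 7.07 and 20.6 CPM). Round spermatids held 37.0, 32.9 and 32.5 CPM, where the knockout library was the lowest with overlapping intervals.

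Olfr655 (chr7:104595301-104601779, minus strand, protein-coding) had, among the listed genes, the largest ratio of its wildtype mean in spermatogonia to that of the next class. Upb1 was near, at 23.2 against 27.9, over a next class of 13 and 7 UMIs, so these 2 genes are not ranked. In spermatogonia Olfr655 stood at 116 CPM (103 to 130; 308 UMIs), 108 CPM (96.3 to 120; 321 UMIs) and 306 CPM (288 to 324; 1156 UMIs). The wildtype libraries overlapped and the knockout library lay above both, at 2.73 times their mean of 112 ± 5.72 CPM (SD, n = 2). The wildtype mean in early spermatocytes, the next class, was 27.9 times lower, at 4.01 ± 0.686 CPM. Round spermatids (1.56 ± 1.77 CPM) and late spermatocytes (0.825 ± 0.128 CPM) followed with overlapping values, the round spermatid mean resting on wildtype replicate 1. Elongating spermatids were lowest at 0.205 CPM. A knockout excess was also present at these low levels of spermatocytes, with 3.52, 4.49 and 11.1 CPM in early and 0.915, 0.734 and 4.12 CPM in late cells. The counting intervals lay above both wildtype libraries, but few cells carried the excess. In early spermatocytes 3 of 542 knockout cells held 57.1% of the 77 knockout UMIs. In late spermatocytes 3 of 509 held 77.0% of 139. In the early spermatocyte cluster led by Stra8 the levels of 8.35, 6.86 and 31.3 CPM passed the size rule.

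Upb1 (chr10:75401115-75441679, plus strand, protein-coding) had fewer counts. Spermatogonia held 21.4 CPM (16.2 to 27.8; 57 UMIs), 12.8 CPM (9.03 to 17.5; 38 UMIs) and 62.9 CPM (55.2 to 71.5; 238 UMIs). The wildtype intervals overlapped and the knockout interval lay above both, with a level 3.68 times the wildtype mean of 17.1 ± 6.14 CPM (SD, n = 2). Every other germ cell class had wildtype means under 1 CPM, led by round spermatids at 0.736 ± 0.433 CPM, and those low values overlapped between classes. Upb1 lost its passing difference with doublets kept or with subclusters of spermatogonia given equal weight, while its log2 ratio over the wildtype mean was 1.80 and 1.49 there, against 1.82. Its gene body overlaps that of Gucd1 on the opposite strand, and whether the counting used the strand is not stated, so its reads and those of Gucd1 may be mixed.

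Tnfaip8l1 (chr17:56162477-56173955, plus strand, protein-coding) was the lowest of these 4 in wildtype spermatogonia. It stood at 2.63 CPM (1.06 to 5.43; 7 UMIs), 3.69 CPM (1.84 to 6.61; 11 UMIs) and 31.5 CPM (26.1 to 37.7; 119 UMIs). The knockout interval lay above both, at 9.95 times the wildtype mean of 3.16 ± 0.750 CPM (SD, n = 2). Of the 119 knockout UMIs, 84 came from 1 cell. Without the highest cell of each library the levels were 2.27, 3.37 and 9.30 CPM (35 knockout UMIs), and the gene no longer passed the size rule. That alternative was added after the data were seen. Its wildtype means in the other germ cell classes were at most 0.373 CPM. Late spermatocytes held 1, 0 and 13 UMIs, 11 of the 13 in 1 cell, and 0, 0 and 2 UMIs without each library's highest cell.

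How the transcripts were spread over spermatogonia differed among these 4 genes. Olfr655 was concentrated in few cells in every library. Its highest cell held 123, 131 and 312 UMIs, which was 39.9%, 40.8% and 27.0% of the class's Olfr655 UMIs. Among the 4827 and 5281 genes with at least 100 UMIs in wildtype spermatogonia, no other gene had so large a share in its highest cell, and the median gene had 2.68% and 2.51%. In the knockout library 13 of 6030 genes had a share at least as large, Olfr655 included. Cells with at least 10 Olfr655 UMIs numbered 8, 6 and 15 and held 87.3%, 87.9% and 90.1% of its UMIs. Without each library's highest cell the levels were 70.1, 64.3 and 225 CPM, and the knockout interval (210.2 to 241) still lay above both.

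Il11 was spread more evenly. Its highest cell held 16, 12 and 51 UMIs, or 4.02%, 4.05% and 3.59% of the class. Cells with at least 10 Il11 UMIs numbered 8, 3 and 51, and those 51 knockout cells held 74.2% of the knockout UMIs. The limit of 10 is in raw UMIs, at median depths of 11024, 8525 and 14415 UMIs per cell. The part of depth in such counts was not tested. For Upb1, 7 knockout cells and 0 wildtype cells reached 10 UMIs, and those 7 held 52.9% of the knockout UMIs. The highest Upb1 cell held 7, 5 and 35 UMIs. Spermatogonia with an Il11 UMI also held an Olfr655 UMI in 16.2%, 15.2% and 30.7% of cases, against 5.26%, 5.42% and 17.2% of those without. The cells with Il11 were deeper (medians of 12023, 10559 and 15441 UMIs, against 10254, 7194 and 12473), and the part of depth was not tested. The highest Tnfaip8l1 cell held 1, 1 and 84 UMIs, and its 70.6% share was the largest of the 6030 genes in knockout spermatogonia. That cell held 20137 UMIs in all, above the knockout spermatogonia's median of 14415.

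**Figure D2:**
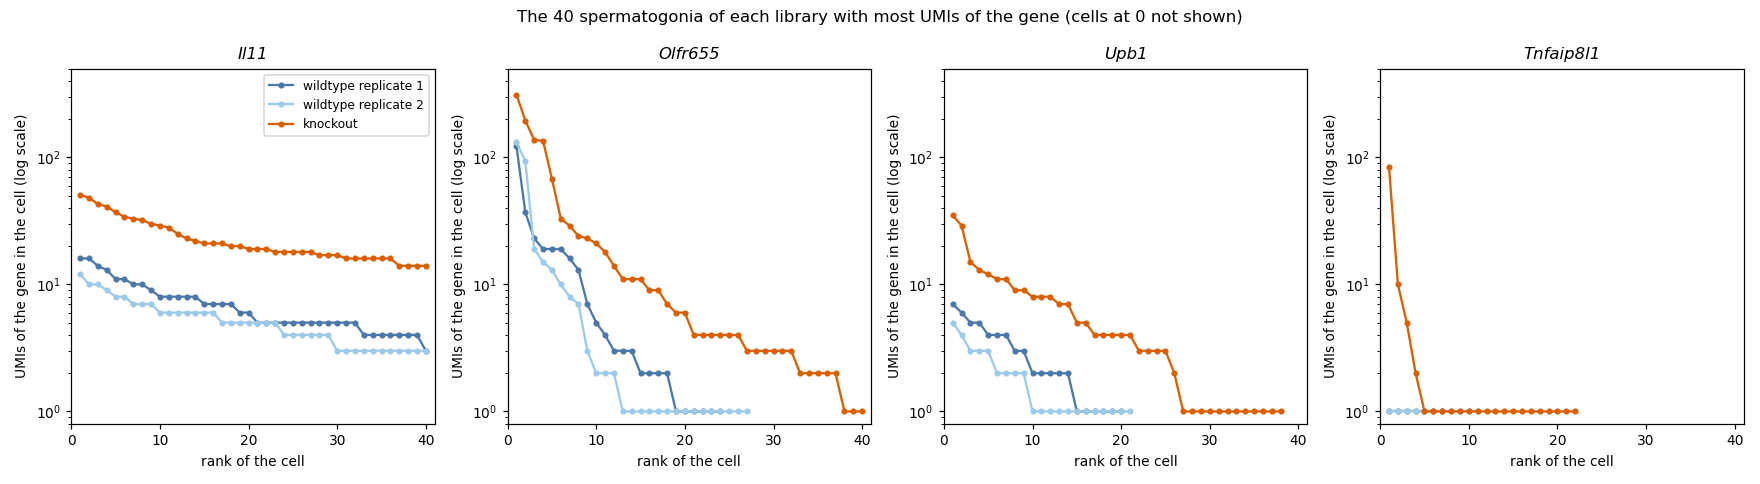
UMIs of Il11, Olfr655, Upb1 and Tnfaip8l1 in each of the 40 spermatogonia per library with most UMIs of the gene, ranked (log axis). The knockout curve of Il11 lies above both wildtype curves along the whole range, Olfr655 drops steeply in every library from 123, 131 and 312 UMIs, and the knockout excess of Tnfaip8l1 starts from 1 cell of 84 UMIs.

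Spermatogonia were divided into 6 subclusters without using the listed genes. Il11 was highest in a subcluster whose leading genes included Stra8, a gene of the retinoic acid response at meiotic entry. Stra8 does not mark that subcluster alone. Over all libraries it stood at 498 CPM there, 324 CPM in the subcluster led by Sdc4 and 306 CPM in that led by Prss50. In the subcluster with Stra8 among its leading genes, Il11 stood at 244.5, 218 and 634 CPM. Its excess was also seen in the subcluster led by Sdc4, Ccnd2, Egr4 and Nanos3, where Gfra1, a marker of undifferentiated spermatogonia, was found (109, 93.4 and 265 CPM). The subcluster led by Nusap1, Ube2c and Cdk1, genes of mitosis, was the exception, with 85.1, 38.4 and 35.4 CPM from only 12 knockout cells. Olfr655, like Il11, had its highest wildtype levels in the subcluster with Stra8, at 196.5 and 377 CPM, against 474 CPM in the knockout library. Its highest cell lay in that subcluster in each library and held 123 of 168, 131 of 263 and 312 of 597 UMIs of it. Its largest excess, 54.9, 40.7 and 497 CPM, lay in a subcluster whose leading genes included Ccne1 and Rrm2, which act at the start of DNA replication. That knockout level came from 395 UMIs in 48 cells. After the highest, the next knockout spermatogonia held 195, 137 and 135 Olfr655 UMIs, so few cells can make up much of it. In the Gfra1-positive subcluster Olfr655 was not higher in the knockout library (73.7, 27.3 and 29.9 CPM). Upb1 was highest in the subcluster with Ccne1 in every library, with 66.8, 32.9 and 180.1 CPM. Tnfaip8l1 had 70.7 CPM in the knockout cells of both the subcluster with Stra8 and the mitotic subcluster, from 89 UMIs (84 of them in 1 cell) and 12 UMIs, against 2.34 to 4.30 CPM in wildtype cells of those subclusters.

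The libraries differed in depth, so each cell was thinned to 2000 UMIs before detection was compared. The share of spermatogonia with an Il11 UMI was then 21.0% (15.8 to 26.9), 12.5% (9 to 16.75) and 32.2% (26.4 to 38.5), exact 95% binomial intervals, and the knockout interval touched that of wildtype replicate 1. Unthinned shares were 49.3%, 34.1% and 61.7%, at median depths of 11024, 8525 and 14415 UMIs. Peritubular myoid cells, taken as a class that should lack germ cell transcripts, had 3.19%, 0% and 1.14% unthinned at medians of 6006.5, 5275.5 and 7259.5 UMIs. Olfr655 was detected in 5.36%, 3.62% and 10.3% of thinned spermatogonia (10.7%, 8.77% and 25.5% unthinned, and 0%, 0% and 1.14% of myoid cells). For Upb1 the thinned shares were 2.68%, 1.97% and 5.79% (8.89%, 6.82% and 15.6% unthinned, and 2.13%, 0% and 0% of myoid cells). The thinned knockout interval overlapped that of wildtype replicate 1 for Olfr655, and those of both wildtype libraries for Upb1. Tnfaip8l1 had 3.11%, 3.57% and 9.05% unthinned, and its wildtype shares were close to the 3.19%, 1.06% and 1.14% of myoid cells and are not read as more than background. A count of 0 in 94 myoid cells allows a share of up to 3.19% of cells with a UMI, taking 3 counts as the limit.

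**Figure D3:**
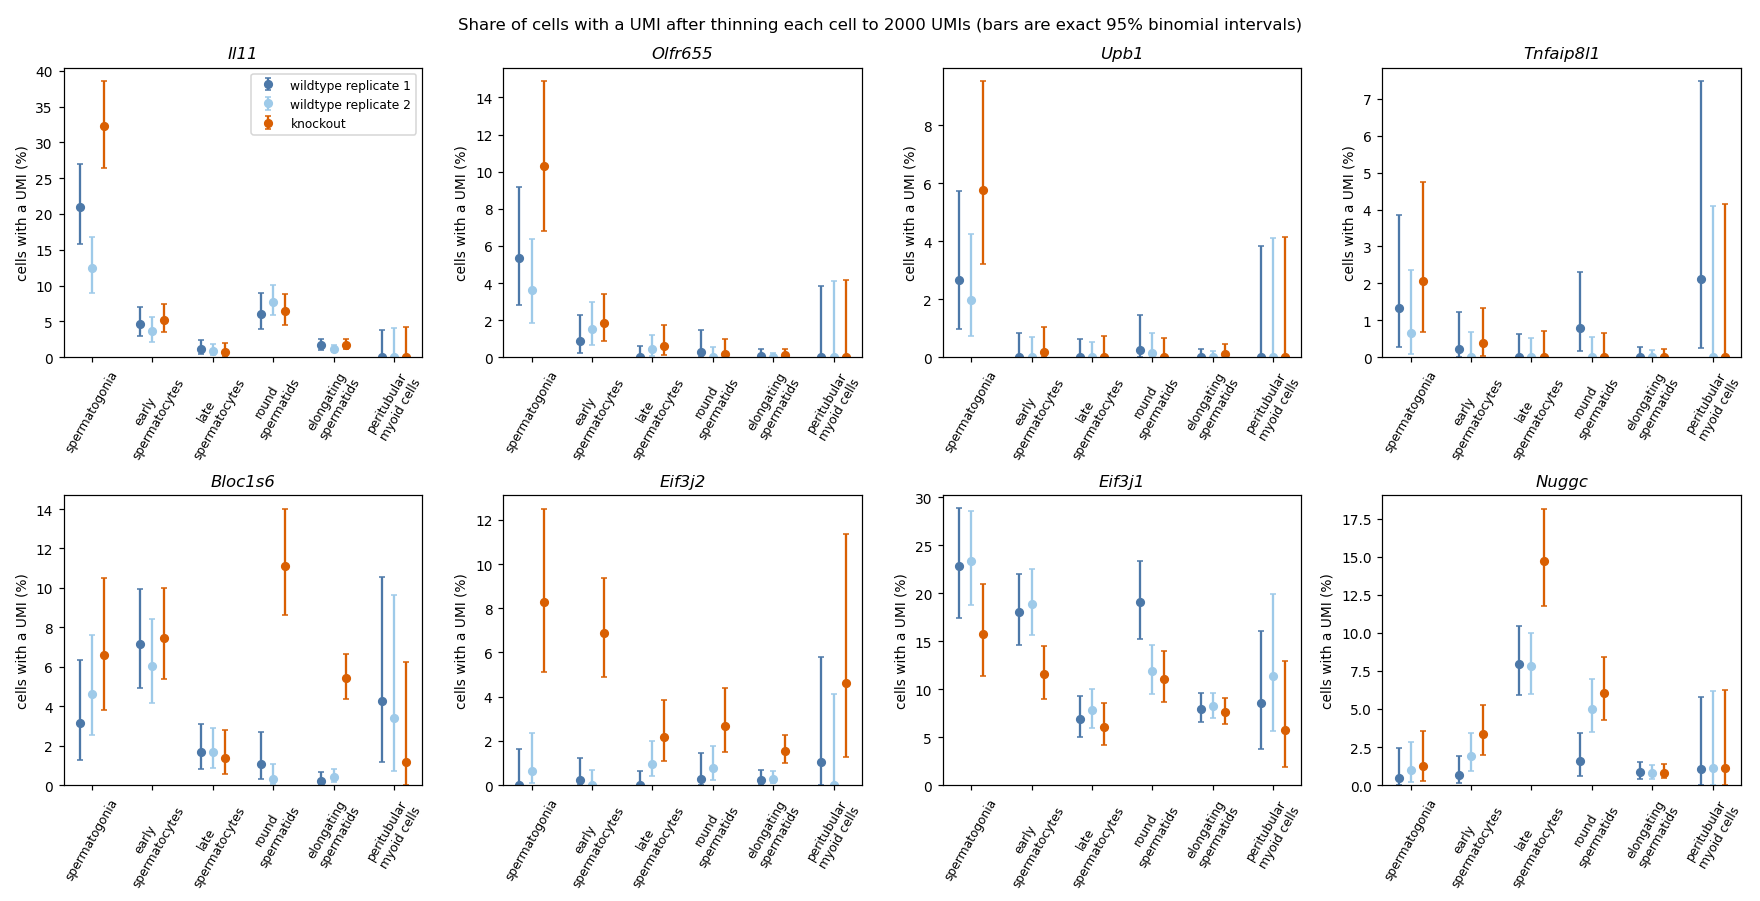
Share of cells (%) with at least 1 UMI of each gene after every cell was thinned to 2000 UMIs, by class and library, with exact 95% binomial intervals. The knockout interval is above both wildtype intervals for Bloc1s6 in round and elongating spermatids (11.1% and 5.41%), for Eif3j2 in spermatogonia, early spermatocytes and elongating spermatids, and for Nuggc in late spermatocytes (14.7%).

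Across the 40 pairs of gene and germ cell class, the knockout interval of thinned detection lay above both wildtype intervals in 6, against 15 without thinning. The 4 genes of spermatogonia were in none of the 6, although the level of each passed the size rule there. These pairs were not counted over all genes, and the genes were chosen for a knockout difference. Nothing is therefore read from the size of these counts. A stricter cell filter (at least 2000 UMIs, 1000 genes and at most 5% mitochondrial UMIs) left out 41.3%, 56.2% and 29.2% of spermatogonia. Under it Il11 stood at 136.6, 79.0 and 301 CPM and Tnfaip8l1 at 3.25, 6.26 and 7.83 CPM, and neither passed the size rule. Olfr655 (51.4, 43.8 and 368 CPM), Upb1 (26.7, 18.8 and 62.7 CPM) and Eif3j2 (1.95, 2.35 and 37.6 CPM) still passed.

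Bloc1s6 (chr2:122738503-122749475, plus strand, protein-coding) had a different stage pattern. Wildtype levels were highest in early spermatocytes (30.3 ± 4.11 CPM, SD, n = 2) and spermatogonia (24.4 ± 1.05 CPM). The values of those classes did not overlap, but their counting intervals did. They were lower in late spermatocytes (11.0 ± 0.964 CPM), and in spermatids they came to 1.46 ± 0.0223 CPM in round and 0.716 ± 0.0830 CPM in elongating cells. In the knockout library round spermatids held the highest level of the 5 classes. Round spermatids held 1.44 CPM (0.855 to 2.28; 18 UMIs), 1.47 CPM (0.945 to 2.19; 24 UMIs) and 69.4 CPM (66.2 to 72.8; 1728 UMIs), a knockout level 47.6 times the wildtype mean. Elongating spermatids held 0.657 CPM (11 UMIs), 0.775 CPM (15 UMIs) and 33.2 CPM (966 UMIs), 46.3 times the mean. The wildtype libraries did not differ beyond counting error in either class, and the knockout library lay above both.

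Before the spermatid stages no excess of Bloc1s6 was seen in whole classes. Spermatogonia held 23.7, 25.2 and 25.4 CPM, early spermatocytes 33.2, 27.4 and 31.2 CPM, and late spermatocytes 11.7, 10.3 and 11.6 CPM, with overlapping intervals in each. The late spermatocyte class hid a split between its 2 clusters. In the cluster led by Pou5f2 the knockout library was below both wildtype libraries (269, 206 and 215 UMIs; 8.83 CPM in the knockout library and 15.4 CPM in wildtype replicate 2). In the other late cluster it was above both (6.01, 4.22 and 18.9 CPM). In round spermatids both clusters passed, with 57.8 and 80.1 CPM in the knockout library and 0.992 to 1.76 CPM in the wildtype libraries. The elongating clusters differed: knockout levels were 51.2 CPM in the cluster led by Tnp2 and 25.9 CPM in the cluster led by Paqr5. They were 4.64 CPM in that led by Spem2, with an interval that met that of wildtype replicate 1.

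Most knockout round spermatids held Bloc1s6 transcripts. Of knockout round spermatids 82.3% (78.9 to 85.4) had a Bloc1s6 UMI, against 4.62% (2.76 to 7.20) and 3.60% (2.32 to 5.32) in wildtype libraries. After thinning to 2000 UMIs these shares were 1.06%, 0.304% and 11.1% (8.61 to 14.0). The median knockout round spermatid held 2 Bloc1s6 UMIs and the highest held 30, or 1.74% of the class, while no wildtype round spermatid held more than 1. In elongating spermatids the median knockout cell held 0, and 34.3% had a UMI, against 0.825% and 0.810% of wildtype cells. Round spermatid markers were level between libraries, with all 15 above 10 CPM in each and summed levels of 9248, 9117 and 9036 CPM. Late spermatocyte markers summed to 1574, 1809 and 1584 CPM in those cells. Elongating spermatid markers were less even there, at 74200, 56680 and 77330 CPM. Of the round spermatid clusters, 1 held 187, 429 and 270 cells and the other 203, 237 and 289. The part of this mix in the round spermatid levels was not tested.

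Eif3j2 (chr18:43475418-43477796, minus strand, 1 exon) was the only listed gene above both wildtype intervals in all 5 germ cell classes. Spermatogonia held 3.39 CPM (1.55 to 6.43; 9 UMIs), 2.35 CPM (0.945 to 4.84; 7 UMIs) and 41.8 CPM (35.5 to 48.8; 158 UMIs), 14.6 times the wildtype mean. Early spermatocytes held 2.20, 2.60 and 32.2 CPM. These 2 classes passed the size rule. In late spermatocytes the levels were 0.845, 1.10 and 8.28 CPM, in round spermatids 2.57, 2.09 and 19.4 CPM, and in elongating spermatids 1.14, 1.39 and 8.76 CPM, where 20 CPM was not reached. Its wildtype order ran from spermatogonia (2.87 ± 0.732 CPM, SD, n = 2) through early spermatocytes and round spermatids, whose values overlapped, to elongating (1.27) and late cells (0.973). By cluster, the knockout interval was above both in 10 of 10 named germ cell clusters, with log2 ratios over the wildtype mean from 2.10 to 3.57. In knockout spermatogonia 44.9% of cells had a UMI (8.26% after thinning, 5.12 to 12.5), against 3.56% and 2.27% of wildtype cells. The highest knockout cell held 2.53% of the class's Eif3j2 UMIs, so no small set of cells carried it.

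**Figure D4:**
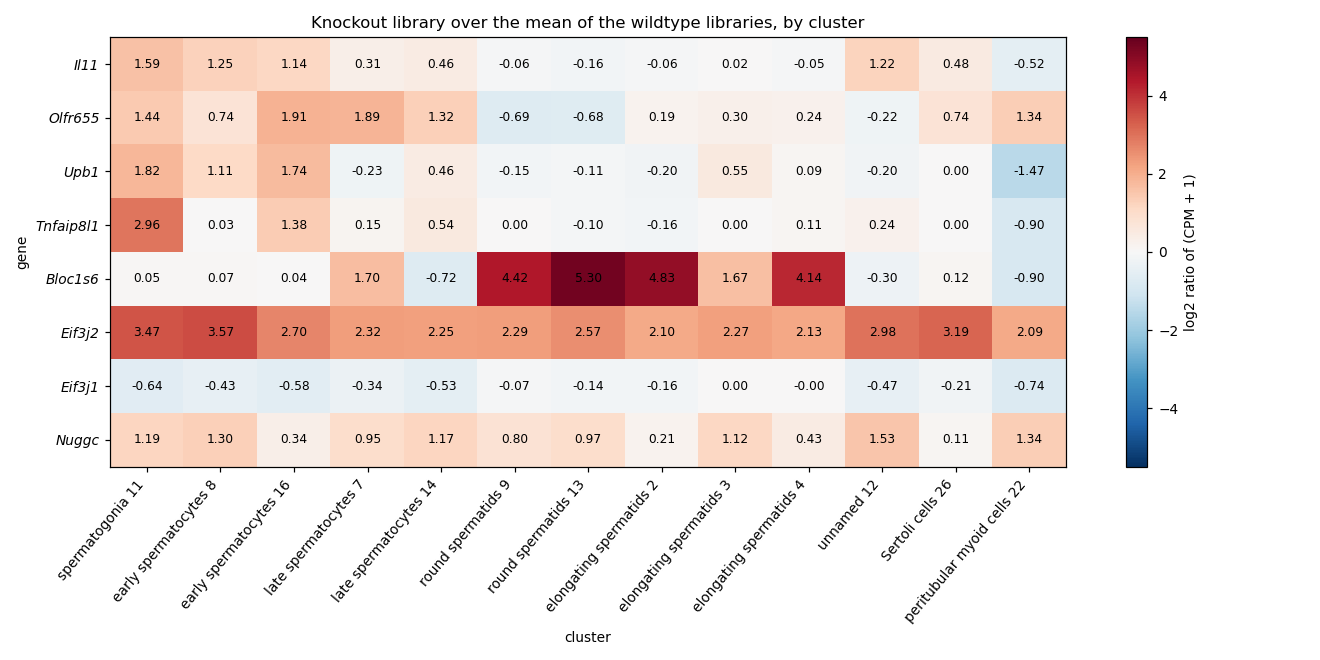
Log2 ratio of CPM + 1, knockout over the mean of the wildtype libraries, for each gene (rows) in the 10 named germ cell clusters, unnamed cluster 12 and the Sertoli and peritubular myoid clusters (columns), with the value in each cell (red higher, blue lower). Eif3j2 is between 2.10 and 3.57 in the germ cell clusters, Bloc1s6 reaches 5.30 in a round spermatid cluster and is -0.72 in a late spermatocyte cluster, and Eif3j1 is at or below 0 in every column drawn.

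Eif3j1 (chr2:122028546-122056598, plus strand, protein-coding), the multi-exon copy, went the other way. Spermatogonia held 127.5 CPM (114 to 142), 133 CPM (119.9 to 146) and 83.0 CPM (74.1 to 92.7), 63.8% of the wildtype mean. Early spermatocytes held 93.5, 93.4 and 67.9 CPM (72.7%) and late spermatocytes 39.4, 37.9 and 27.7 CPM (71.8%). In these 3 classes the knockout interval was below both wildtype intervals, though none passed the size rule. Round spermatids held 90.2, 67.1 and 81.0 CPM, and elongating spermatids 44.5, 46.3 and 42.6 CPM, without such a gap. Wildtype Eif3j1 was highest in spermatogonia (130.1 ± 3.61 CPM, SD, n = 2) and then in early spermatocytes, round spermatids, elongating spermatids and late spermatocytes. The values of neighbouring classes did not overlap. Counting intervals did overlap between early spermatocytes and round spermatids, and between elongating spermatids and late spermatocytes. Its gene body overlaps Spg11 on the opposite strand, which stood under 1 CPM in round spermatids of every library.

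The 2 copies are nearly the same in sequence where they align. An Eif3j1 transcript of 5413 bases and the Eif3j2 transcript of 2379 bases aligned over 2369 bases with 4 mismatches (99.8% identity), covering 99.6% of Eif3j2. Of the 31-base words in the last 500 bases of Eif3j2, 93.4% also occur in Eif3j1 transcripts. Of those in the last 500 bases of Eif3j1 transcripts, 5.74% occur in Eif3j2. How reads from the shared stretch were split is uncertain, while most words at the Eif3j1 ends are not shared. Compared with Eif3j1 alone, their summed level stood closer to the wildtype mean in spermatogonia and in early and late spermatocytes. It stood farther from it in round and elongating spermatids. It was 130.9, 135 and 124.8 CPM in spermatogonia (93.9% of the wildtype mean), 95.7, 96.0 and 100.1 CPM in early spermatocytes (104%) and 40.2, 39.0 and 36.0 CPM in late spermatocytes (91.0%). In round spermatids the sum was 92.8, 69.2 and 100.4 CPM (124%, against 103% for Eif3j1 alone). In elongating spermatids it was 45.7, 47.7 and 51.3 CPM (109.9%, against 93.7%). What differed in every class was the share of the pair's UMIs assigned to Eif3j2. Over all germ cells it was 2.44% (1.98 to 2.98), 2.78% (2.28 to 3.35) and 21.9% (20.9 to 23.0). By class the knockout share ran from 33.5% in spermatogonia and 32.2% in early spermatocytes to 22.98%, 19.3% and 17.1% in later stages, and the wildtype shares stayed between 1.74% and 3.02%. Whether the division of reads between the copies has a part in these levels was not tested.

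**Figure D5:**
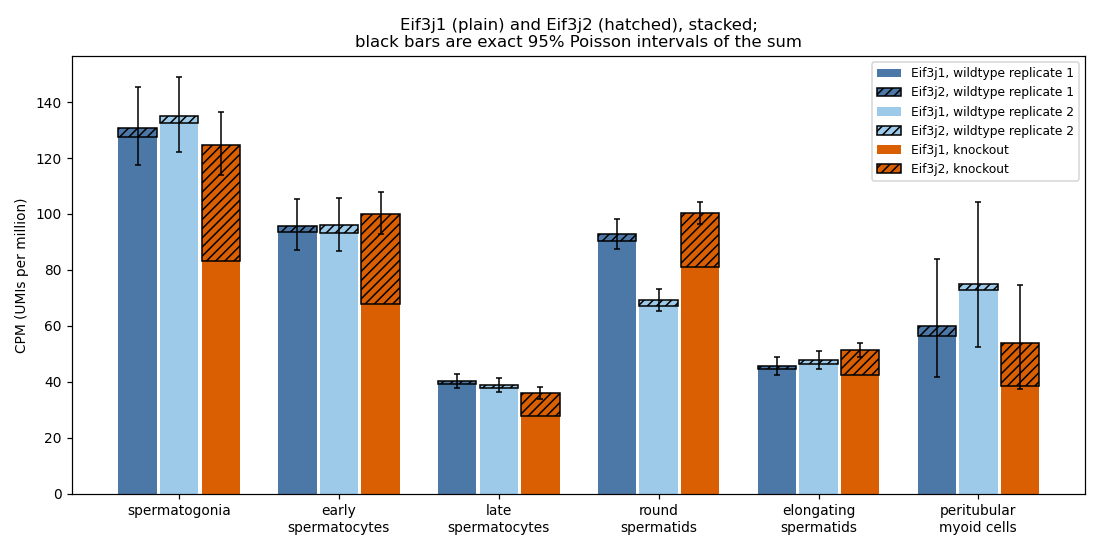
Eif3j1 (plain bars) and Eif3j2 (hatched bars) stacked, in CPM, per class and library, with exact 95% Poisson intervals of the sum. The hatched part is 17.1% to 33.5% of the knockout bar in the germ cell classes and at most 3.02% of the wildtype bars there, while the sums lie close together in spermatogonia and early spermatocytes.

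Nuggc (chr14:65598546-65648531, plus strand, protein-coding) peaked in late spermatocytes in all libraries. There it stood at 46.7 CPM (44.3 to 49.3; 1328 UMIs), 43.7 CPM (41.2 to 46.4; 1072 UMIs) and 101.7 CPM (98.4 to 105; 3430 UMIs). The wildtype intervals overlapped, and the knockout level was 2.25 times their mean of 45.2 ± 2.13 CPM (SD, n = 2). Wildtype levels were next highest in round spermatids (19.5 ± 2.80 CPM) and early spermatocytes (6.74 ± 0.501 CPM), and those of spermatogonia and elongating spermatids overlapped near 2 CPM. Early spermatocytes (6.38, 7.09 and 16.8 CPM) and round spermatids (17.5, 21.4 and 32.9 CPM) also had knockout intervals above both wildtype libraries, under the size rule. The knockout level was 2.50 times the wildtype mean in early spermatocytes and 1.69 times in round spermatids. In elongating spermatids (2.03, 2.38 and 3.57 CPM) the intervals overlapped. Of the late clusters, the Pou5f2-led one held 48.7 and 47.8 CPM in the wildtype libraries and passed with a knockout interval of 105.8 to 114.2 CPM, and the other held 43.3, 38.9 and 80.4 CPM.

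The median late spermatocyte held 2, 1 and 4 Nuggc UMIs, and 145 knockout cells had at least 10, against 8 and 2 wildtype cells. These are raw UMIs at median depths of 31028, 24189 and 42437 UMIs per cell. The part of depth in them was not tested. The highest cell held 1.51%, 1.12% and 1.22% of the UMIs, so the signal was broad in each library. Detection after thinning was 7.94%, 7.81% and 14.7% (11.8 to 18.1), with the knockout interval above both. Unthinned it was 78.6%, 62.3% and 91.9%, and 1.06%, 2.13% and 6.82% in peritubular myoid cells. When CPM was averaged over cells rather than summed, Nuggc no longer passed in late spermatocytes, at a log2 ratio over the wildtype mean of 1.07 against 1.15.

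Somatic cells were few, with 117, 121 and 189 in all, and their make-up differed. Sertoli cells numbered 23, 14 and 53, Leydig cells 0, 13 and 48, and peritubular myoid cells 94, 94 and 88. The part of this mix in the pooled values was not tested. In them 35 of 8418 genes passed as higher (0.416%) and 341 as lower (4.05%), and 0 of the 3 listed genes tested passed. Eif3j2 was the nearest, with 4.13 CPM (4 UMIs), 1.08 CPM (1 UMI) and 21.7 CPM (70 UMIs, 16.9 to 27.5), an interval above both wildtype libraries. Its smaller ratio of 2.15 was under 2 times the difference between the wildtype libraries (-1.31), so it did not pass, and it passed against either wildtype library alone. In Sertoli cells it stood at 2, 0 and 45 UMIs from 23, 14 and 53 cells, the 0 allowing up to 12.8 CPM with 3 counts as the limit. Its share of the pair's UMIs there was 5%, 0% and 31.03%. Germ cell RNA was also present in those Sertoli cells: elongating spermatid markers, all 16 of them above 10 CPM, summed to 7773, 14030 and 19220 CPM. Spermatogonia markers (5 of 15 above 10 CPM) summed to 494, 703 and 513 CPM and early spermatocyte markers (6 of 15) to 449, 196 and 690.3 CPM. Their part in the Eif3j2 level was not tested.

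Among the other genes in somatic cells, Bloc1s6 stood at 25.8, 17.2 and 15.2 CPM and Nuggc at 4.13, 5.38 and 8.69 CPM, with overlapping intervals. Il11 had 7, 1 and 18 UMIs, Olfr655 had 1, 0 and 5, Upb1 had 2, 0 and 0, and Tnfaip8l1 had 3, 1 and 2. Differences of these 4 were not detectable at this depth. Peritubular myoid cells alone had 67 of 8045 genes higher (0.833%) and 122 lower (1.52%), with 0 of the 2 listed genes tested in either direction. The knockout interval lay above both wildtype intervals at every germ cell stage for Eif3j2 alone among the listed genes.

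The low-UMI barcodes repeated part of the pattern. In them 27 of 6677 genes passed as higher (0.404%) and 52 as lower (0.779%, 0 listed genes). The higher ones held 2 of the 4 listed genes tested, Bloc1s6 (6.71, 8.22 and 28.7 CPM) and Nuggc (27.7, 26.01 and 60.7 CPM). Eif3j2 stood at 2.24, 2.29 and 13.1 CPM. Eif3j1 was lower (63.5, 64.0 and 47.7 CPM), and Il11 was lower too (23.1, 21.0 and 16.1 CPM), with pooled knockout intervals below both. The low-UMI clusters were pooled in different proportions: the largest held 1319 of 4127, 994 of 3104 and 3263 of 7137 barcodes. Within the 14 low-UMI clusters compared, 0 had an interval below both for Il11 or Eif3j1, and the Il11 level was above both in 6. Clusters left unnamed, mainly a cluster led by Stambp, Adad2 and Piwil1, held Nuggc at 19.5, 22.02 and 60.8 CPM and Il11 at 1.10, 0.691 and 3.52 CPM.

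No neighbouring gene passed the size rule. Within 200 kb of the 8 genes, 40 other genes reached 20 CPM in a germ cell class. Of them, 0 passed in either direction in any class. Over all genes tested, 0.649% passed as higher in at least 1 class. As lower, 0.0949% to 0.694% passed by class. So 0 of 40 is near those shares and is not read as a result about the neighbourhoods. Tmem190, which starts 78 bases from Il11, stood at 21.8, 28.5 and 14.0 CPM in spermatogonia. Around Bloc1s6, Sqor held 484, 521 and 525 CPM and Slc30a4 87.4, 63.2 and 100.7 CPM in round spermatids. Dpysl3, near Eif3j2, held 29.7, 29.9 and 28.0 CPM in spermatogonia. Olfr655 had 0 such neighbours. Eif3j1 and Bloc1s6 lie 682 kb apart on chromosome 2, and Il11 and Olfr655 lie 99812 kb apart on chromosome 7.

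No other gene of the pathway lists passed the size rule in a germ cell class where it was tested. By class 0.0858% to 0.727% of all genes tested passed as higher and 0.0949% to 0.694% as lower. So 0 among so few genes is near those shares and is not read as a result about the pathways. Of 12 other eIF3 subunits, all 12 were tested in spermatogonia, 0 passed, and their median log2 ratio was 0.09 against -0.01 over all genes tested. Eif3c had the highest wildtype mean of them there (473, 561 and 550.2 CPM). Eif3k stood above both wildtype levels in late spermatocytes (345, 329 and 493 CPM), round spermatids (133, 138 and 213 CPM) and elongating spermatids (121, 125 and 206 CPM), under the size rule. Eif3a did so in elongating spermatids (28.1, 33.5 and 50.3 CPM). Of 12 other BLOC-1 and BORC subunits, 4 were tested in round spermatids and 0 passed, with a median of 0.08 against -0.03. Borcs6 stood at 13.5, 15.8 and 23.8 CPM in spermatogonia. Bloc1s2, the highest of the list there by wildtype mean, stood at 18.2, 20.1 and 14.5 CPM in round spermatids. Of 13 other genes of interleukin 11 and interleukin 6 signalling, the 4 tested in spermatogonia included the kinases Jak1 (129, 166 and 147 CPM) and Jak2, and 0 passed, with a median of -0.08. Of 5 other hypermutation genes 3 were tested in spermatogonia, 3 in early spermatocytes and 1 in round spermatids, and 0 passed. None was tested in late spermatocytes, where Nuggc passed. None of the 6 other genes listed for uracil and thymine breakdown and none of the 3 other TNFAIP8-family genes reached 20 CPM in a germ cell class. Of 1135 olfactory receptor genes, 2 were tested in spermatogonia, Olfr655 and Olfr889, and Olfr889 stood at 29.0, 28.9 and 24.6 CPM.

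The genes whose wildtype profiles were most like those of the listed genes are given by Pearson's r over 14 points, 7 classes in each of the 2 wildtype libraries. These points share libraries and depth, and r is a description. Bloc1s6 was most like Pggt1b (r = 0.993) and Tia1 (0.991), Olfr655 most like Jph1 (0.974) and Tbx1 (0.972), and Nuggc most like Pex11g (0.969) and Exosc5 (0.961). Il11 was nearest to Rps6ka1 (0.945) and Suv39h2 (0.927), and Upb1 to Rhox10 and Sall4 (both 0.92). Eif3j1 was nearest to Edrf1 (0.959) and Prdm4 (0.952), and Eif3j2 only loosely to Mllt3 (0.856) and Actr1b (0.804). Tnfaip8l1, with 38 wildtype UMIs in these classes, was too sparse to be compared. For the remaining genes, sharing of 3′ words with other genes was limited, at 11.4% for Olfr655 (most with Ano6), 8.09% for Tnfaip8l1 (most with Atp5g1), 1.10% for Upb1 and 0% for Il11, Bloc1s6 and Nuggc.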

How the data were processed

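The authors deposited, for each library, a matrix of UMI counts that were not normalized, made with Cell Ranger 4.0.0 per the file headers. The build mm10 and Seurat 4.0.5 are named in the submitters' processing notes. Whether counting used the strand is not given in the sources used here. The members and gene lists were chosen with earlier results of these data known. Genes named are the 8 members, Tex10, their neighbours within 200 kb, list genes and the genes of most similar profile, and the genes leading a cluster or subcluster, which were named after their values were seen. Single neighbours and list genes given with values were picked as examples after their values were seen.

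Positions come from GENCODE M21 (GRCm38), which matched 32235 of 32285 genes, and promoters from RefSeq, which held 5 of the 8 members. Kept barcodes had at least 1000 UMIs, 500 genes and at most 10% mitochondrial UMIs. Scrublet's automatic threshold marked 0, 1 and 0 doublets, so the top 8% of scores were left out (651, 667 and 962). Cells were clustered over all libraries without batch correction (scanpy 1.11.5, leidenalg 0.10.2, resolution 1, 2000 variable genes, members excluded, 31 clusters). Clusters were named from fixed markers, and those with medians under 3 times the library's lowest total were called low-UMI. Class names are rebuilt here and may differ from the study's. Subclusters of spermatogonia used 1000 variable genes and resolution 0.6. UMIs were summed per class and library. With 1 knockout library no test was run, and p-values and standard errors are not given. Fold values are ratios of CPM, and log2 ratios use a pseudocount of 1 CPM. Alternatives included TMM scaling (edgeR 4.0.16).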

Additional observations from a re-analysis of the deposited data

Results flagged for a closer look

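The log2 ratio of Il11 over the wildtype mean was 1.59 in spermatogonia and -0.10 in round spermatids, where the knockout level was below both wildtype levels with overlapping intervals. That of Bloc1s6 was 4.84 in round spermatids and -0.90 in peritubular myoid cells, the latter from 16, 9 and 8 UMIs with overlapping intervals. These values were picked out because the levels lay on opposite sides of the wildtype libraries, and no lower level is shown beyond counting error. Neither difference of ratios between classes was tested.

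Barcodes above the mitochondrial limit (991, 935 and 903), which entered no comparison, showed Eif3j2 and Nuggc above both wildtype libraries. Eif3j2 stood at 1.78 CPM (0.577 to 4.15), 2.34 CPM (0.940 to 4.82) and 19.5 CPM (81 UMIs). Nuggc stood at 14.6, 15.03 and 29.6 CPM (123 UMIs). Eif3j1 was lower there, at 64.4, 67.2 and 40.96 CPM.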

How the results depend on the processing

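Of 736 values of a listed gene in a class under an alternative, 595 moved by less than the wildtype spread and 141 moved further. Of the 135 among them from a gene past the size rule in that class, 34 moved further and 0 changed sign. With no filter on low values, the members higher numbered 4 (early spermatocytes), 3 (late spermatocytes), 2 (round spermatids) and 2 (elongating spermatids), and all genes higher numbered 129, 59, 62, 89 and 63 from spermatogonia to elongating spermatids. With a fold threshold of 1.5, 2 members were higher in early spermatocytes and 2 in round spermatids, and 51, 25, 48, 61 and 55 genes in the same class order. The stricter cell filter gave 3 members in spermatogonia, 2 in early spermatocytes and 32 genes there. In early spermatocytes 2 members passed with a pseudocount of 0.5 CPM, with low-UMI clusters named too (10 genes) or with members allowed in clustering (Il11 or Nuggc joining Eif3j2). A mean over cells gave 11 genes there and 0 members in late spermatocytes, and equal weight of clusters, added after seeing the data, 11 genes. In somatic cells 1 member, Eif3j2, passed with a pseudocount of 5 CPM or, added later, without Leydig cells. Leaving out either wildtype library gave 5 members and 32 to 41 genes in spermatogonia, 1 to 2 members and 10 to 14 genes in early spermatocytes, 31 to 50 genes in round spermatids and 1 member (Eif3j2) in somatic cells. Detection exceeded both wildtype intervals in 15 gene and class pairs without thinning, against 6. TMM scaling and 1500 thinned UMIs moved no member count or detection count past 1.5 times. Kept doublets and equal weight each left 4 members in spermatogonia, without Upb1, as did leaving out the highest cell, without Tnfaip8l1. No paired analysis was possible because the knockout group has 1 library and no test was run. Depth limits every value in somatic cells, and free RNA was not measured.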
